A study of Mus musculus with 24 samples.

Results

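The cytosolic ribosome is built on ribosomal RNA from proteins encoded by the Rpl genes (large, 60S subunit) and the Rps genes (small, 40S subunit), and 82 of these genes are described here out of 55335 in the count table. They are the protein-coding genes whose symbol is Rpl or Rps followed by a digit, or Rplp0, Rplp1, Rplp2 or Rpsa, without the Rps6k kinases and without symbols marked -ps, and with a mean of at least 10 CPM (the share of a library's counts that fall on a gene, scaled up) over the 24 libraries. The symbol rule gave 93 genes, of which 86 were protein-coding. The minimum removed 4 of those, Rpl3l at 0.0222 CPM, Rpl10l at 0.113, Rpl39l at 0.681 and Rps27rt at 4.13, and the lowest that passed were Rps21 at 28.4, Rpl5 at 29.4 and Rpl22l1 at 34.0 CPM. Of the 82 genes, 33 carry 40S symbols and 49 carry 60S symbols, they lie on 19 chromosomes, and all 82 passed the filter on low counts and were tested among 15953 genes. The label holds with exceptions: Rps19bp1 fits the symbol rule but encodes a binding partner of the protein Rps19, and Rpl7l1 encodes a nucleolar relative of Rpl7.

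The RNA was that of iNKT cells (invariant natural killer T cells, which see lipids held by CD1d) sorted out of mesenteric lymph nodes. All mice were C57BL/6J offspring of dams given fecal transplants (FT), with donors that were CD1d-knockout (KO FT) or wild-type (WT FT). The mice received by oral gavage either 200 µL PBS that held 2 µg aGC (alpha-galactosylceramide, a glycolipid that activates iNKT cells) or PBS alone, and cells were taken 24 h later. The 8 groups were KO FT with aGC, WT FT with aGC, KO FT with PBS and WT FT with PBS, each in males and in females, with 3 libraries in each. The sources used here give neither ages nor whether mice were pooled. Effects of donor, dam, litter and cage cannot be told apart. Whether the 3 libraries of a group stem from different animals is not stated in the labels, and p-values here therefore reflect only spread among those libraries, possibly of technical origin.

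Resting T cells hold few ribosomes, and a T cell that meets antigen enlarges and makes more of them before it divides. Transcription of ribosomal RNA and of ribosomal protein genes is raised by Myc, while the signalling kinase mTOR acts mainly on translation: messenger RNAs of ribosomal proteins begin with a tract of pyrimidines (the 5′ terminal oligopyrimidine or TOP motif), which the protein Larp1 binds. Because a ribosome holds the core proteins in fixed proportions, their messenger RNAs tend to be present together, and paralogs such as Rpl22l1 or Rps27l can stand in for the protein they resemble.

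A sequence feature at the start of some of these messenger RNAs was searched for, since the membership rule does not use it. RefSeq promoter windows (GRCm38.p6, 250 bases before to 50 after the start) were matched by symbol for 62 of the 82 genes. The stretch CTCTTTC, a form of the TOP tract, was searched on the sense strand only and anywhere in the window. It occurred in 13 of the 62 (20.97%), against 4.60% of all 27025 genes with a window. Most of each window lies before the annotated start, so a match need not lie at the start of the messenger RNA or within it. The 5 stretches of 30 bases printed here are examples in which the tract begins within 10 bases of an annotated start. Not every member's window was considered for printing, so the list may be incomplete. The stretches run 5′ to 3′ on the gene's strand, with the tract in capitals.
Rpl35 (chr2:39005114-39005143, minus strand): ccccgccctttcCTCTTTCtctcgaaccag
Rpl28 (chr7:4792953-4792982, plus strand): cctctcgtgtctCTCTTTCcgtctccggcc
Rpl18 (chr7:45718060-45718089, plus strand): tctcgcaggccgCTCTTTCcccgcccactc
Rps26 (chr10:128626484-128626513, minus strand): agccgccggatcCTCTTTCgagtcttggct
Rpl35a (chr16:33056470-33056499, plus strand): gggcttgccttcCTCTTTCcgccatcttgg

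The tract begins on the first annotated base in Rpl35, Rpl28 and Rpl35a, on the second in Rpl18 and on the sixth in Rps26. Among other motifs, CCGGAAG (bound by ETS factors, including GABP) occurred on either strand in 40.3% of the 62 windows, against 9.93% of all genes. CCATNTT (the core of the YY1 site) occurred on either strand in 32.3%, against 18.2%. The E-box CACGTG, a site of Myc, occurred on either strand in 9.68%, close to the 8.09% of all genes. No overlap between motifs was removed, and a match is a stretch of letters, not a measured site.

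Library totals ran from 9764931 to 37016768 estimated counts. The 7 iNKT markers summed to 4679 to 5542 CPM in the aGC libraries and to 6034 to 7646 CPM in the PBS libraries. The list includes Cd3e (695 to 1132 CPM), Trac and Il2rb (1221 to 1892 CPM), which other T cells express too. The sum therefore does not measure the share of iNKT cells. Markers of other cells were present too: 10 B cell markers summed to 455 to 1080 CPM, with Pax5 at 0 in some groups, and Cd8a with Cd8b1 differed between groups by a wide margin, which is given beside the results for the sexes. Levels of single genes below are CPM after TMM scaling, and SE is that of edgeR's log2 change.

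Ribosomal protein genes summed to 23051 CPM on average over the libraries, and their share of all counts differed by treatment and transplant. KO FT libraries with aGC held 2.20, 2.42 and 2.75% in males and 2.39, 2.42 and 2.42% in females. WT FT libraries with aGC held 3.06, 3.07 and 3.22% in males and 2.69, 2.77 and 2.80% in females. KO FT libraries with PBS held 1.85, 2.02 and 2.05% in males and 1.83, 1.89 and 2.11% in females. WT FT libraries with PBS held 2.10, 2.22 and 2.26% in males and 1.56, 1.57 and 1.66% in females. Within WT FT every aGC library lay above every PBS library, and within KO FT likewise, although KO FT male replicate 1 with aGC, at 2.20%, was below the highest WT FT library with PBS. The ratio of 60S to 40S counts stayed between 1.46 and 1.60 in all 24 libraries, so the subunits kept nearly the same proportion. In bulk RNA, fewer cells with high levels and less RNA per cell cannot be told apart.

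**Figure D1:**
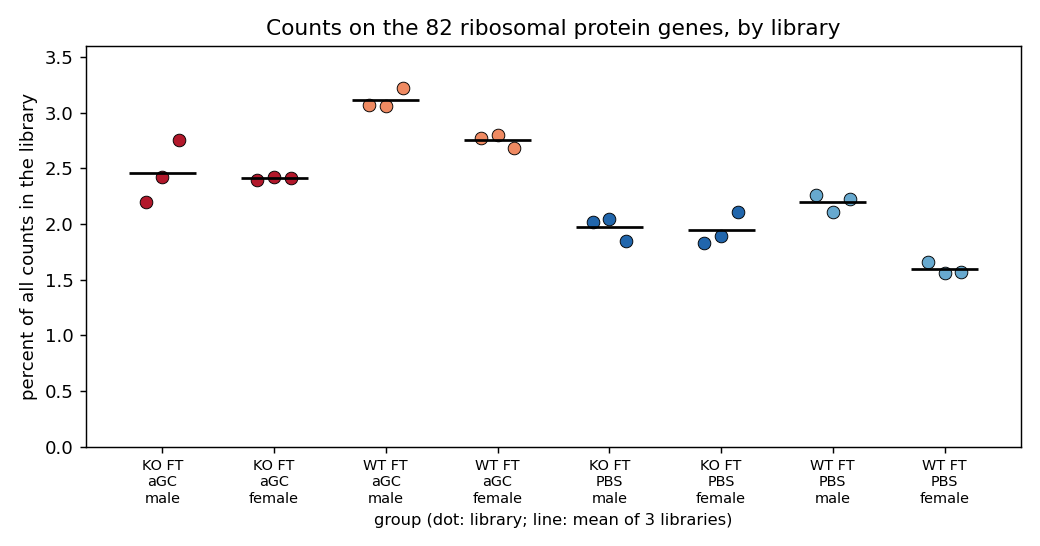
Percent of all estimated counts that fell on the 82 ribosomal protein genes (vertical axis), with 1 dot for each library and a line at the mean of the 3 libraries of a group. WT FT libraries with aGC sit highest, between 2.69 and 3.22%, and WT FT female libraries with PBS sit lowest, between 1.56 and 1.66%.

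Per kilobase of coding sequence the members spanned a wide range of levels. Rpl41 stood highest at 2272 CPM per coding kb, with Rpl13 at 2142, Rplp0 at 1147 and Rps19 at 1120 also near the top, and the median of the 82 was 445. Rpl5 stood lowest at 33.0, with Rpl12 at 92.8 and Rpl22l1 at 92.9. Per kilobase of spliced length the order changed, with Rpl13 at 1739, Rps6 at 820, Rpl19 at 804, Rplp0 at 804 and Rps18 at 801 at the top and Rpl12, Rps20 at 32.3, Rpl22 at 24.1, Rps15a at 19.6 and Rpl5 at 14.4 at the bottom. The annotated spliced length of some members is far above the coding length, as for Rps15a with 5154.5 bases spliced and 390 coding, which lowers the value per spliced kb. Rpl41 has 563 bases spliced and only 75 coding, which raises its value per coding kb. Per spliced kb it ranked 37 of the 82, at 303.

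Ribosomal protein genes have many processed copies in the genome, and reads shared with a copy cannot be assigned with certainty. The annotation held 307 genes that share at least 50% of their 31-base words with 70 of the members, and together they averaged 2049 CPM. The most affected was Rpl5, which binds 5S ribosomal RNA with Rpl11: it averaged 29.4 CPM, while its copy Gm15500 (chromosome 7, 114705217 to 114706235), all of whose 31-base words occur in Rpl5, averaged 639 CPM and ran from 333 to 1260. Gm10275, a copy of Rpl12, averaged 169 CPM against 45.9 for Rpl12, and Rps23-ps1 averaged 146 CPM against 142 for Rps23. Rpl10-ps3 averaged 226 CPM against 209 for Rpl10. Values of these genes alone are therefore uncertain, and summed values are given beside members named below in the comparisons over both sexes where summing changed the call.

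Nearly the whole family was higher after antigen in offspring of dams with wild-type donor microbiota. Of the 82 genes, 80 were higher and none was lower with aGC than with PBS in WT FT (edgeR quasi-likelihood test, Benjamini-Hochberg adjusted p under 0.05, two-sided), when 30.9% of all tested genes were higher and 37.5% lower. Rps27 was among the 2 genes that did not pass. Here and in the comparisons below in which no member was higher or none lower, edgeR at an unadjusted p under 0.05 and DESeq2 also gave 0. The median log2 change was 0.89 (1.85-fold), against -0.11 for all tested genes. Both subunits took part, with 32 of 33 genes of the 40S higher at a median of 0.87 and 48 of 49 of the 60S at 0.99. For 74 of the 82 genes all 6 aGC libraries lay above all 6 PBS libraries, which held for 17.9% of all tested genes.

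Rpl38, a small 60S protein (ENSMUSG00000057322.12, chromosome 11, 114668524 to 114672331), changed most. Its lowest, median and highest levels were 110.1, 155 and 209 CPM in the 6 WT FT libraries with aGC, against 43.7, 53.6 and 64.2 CPM in the 6 with PBS. The groups did not overlap, and the log2 change was 1.54 ± 0.10 (SE, adjusted p = 1.90e-12). Next came Rpl35a at 1.41, Rps15 at 1.37, Rpl31 at 1.34 and Rps19bp1 at 1.34, and their fold changes lay between 2.53 and 2.65.

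Rplp0, the anchor of the ribosomal stalk that recruits elongation factors (chromosome 5, 115559467 to 115563727), had 1556, 1617 and 1689 CPM (lowest, median, highest) with aGC and 663, 807 and 993 CPM with PBS. Its log2 change was 1.02 ± 0.04 (SE), and the stalk proteins Rplp1 and Rplp2, which bind it, changed by 0.51 ± 0.09 and 1.02 ± 0.10. Rps6, the 40S protein that S6 kinases phosphorylate, rose by 0.81 ± 0.05 on the log2 scale, and Rps3, which lies at the entry channel for messenger RNA, by 0.70 ± 0.05. Rpsa, also known as the laminin receptor, rose by 0.73 ± 0.04. In the pair that binds 5S RNA, Rpl11 rose by 0.99 ± 0.07 alone and by 0.88 ± 0.08 with its copies summed. Rpl5 rose by 1.40 ± 0.04 with its copies summed, and most of that sum was the copy Gm15500, at a mean of 639 CPM. Rpl5 alone rose less, by 0.86 to 0.95 with each library left out in turn.

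**Figure D2:**
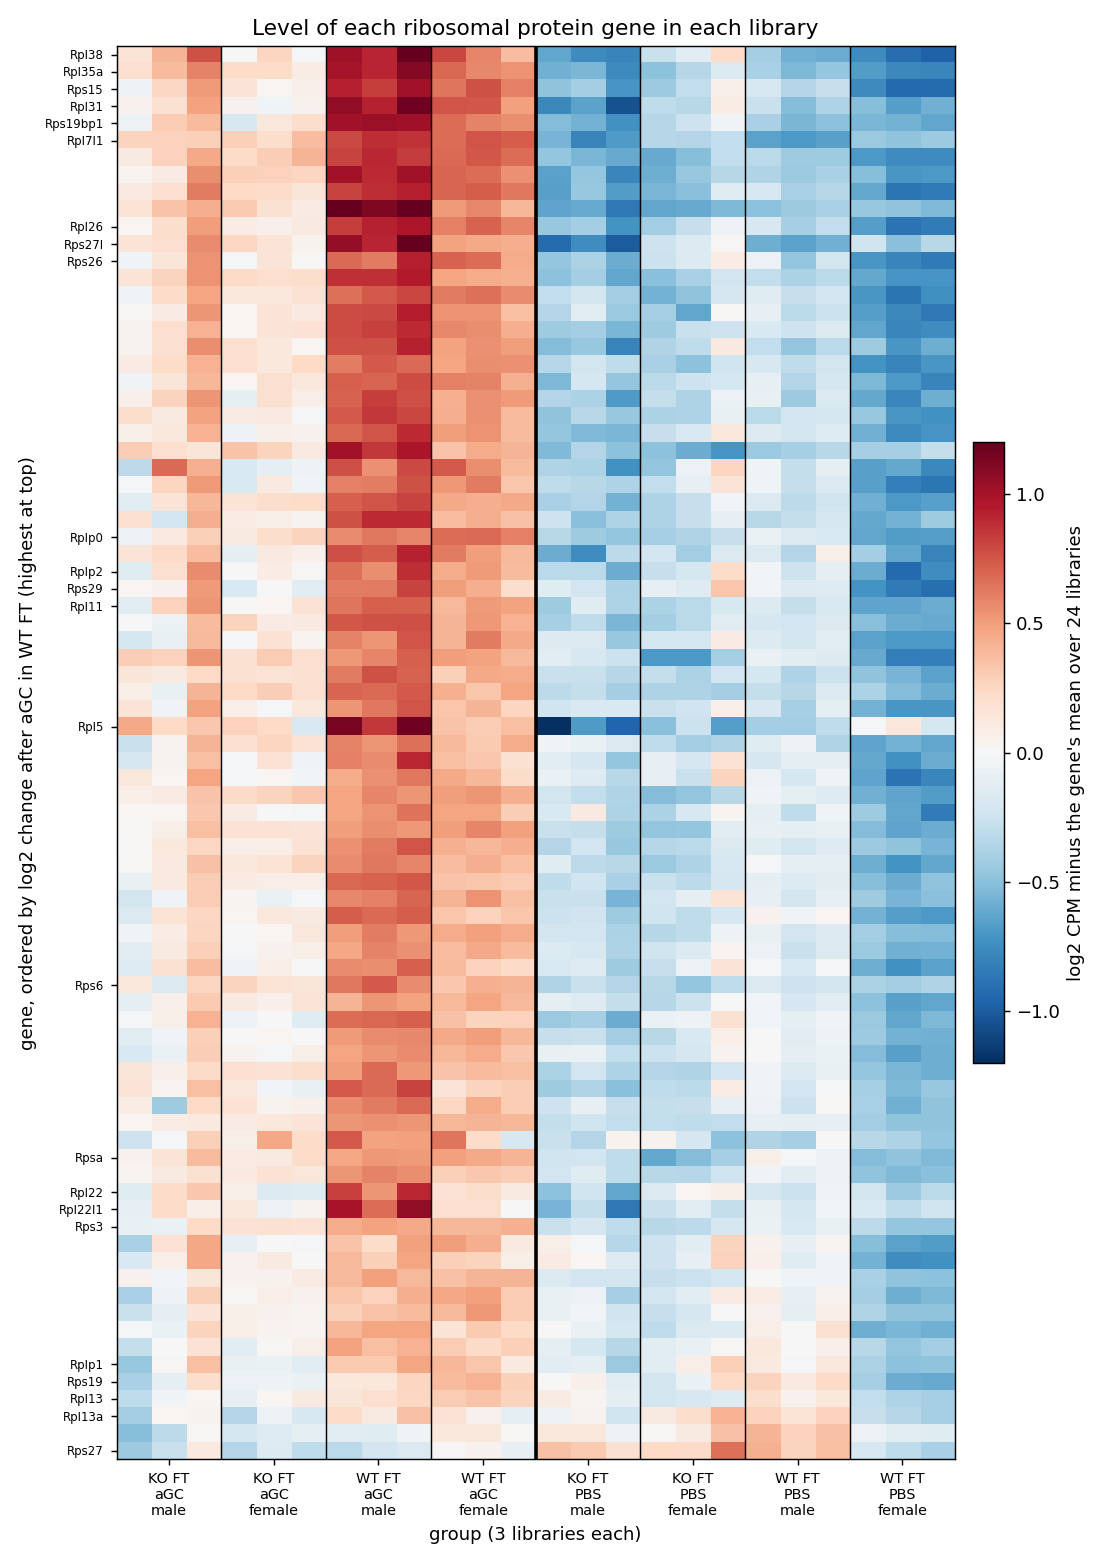
Log2 CPM of each of the 82 genes (rows) in each of the 24 libraries (columns, 3 for each group) minus the gene's mean over all libraries, where red is above and blue below the mean and colours saturate at the ends of the bar. Names are given for some rows, and rows are ordered by the change after aGC in WT FT, from Rpl38 at 1.54 to Rps27 at -0.16, and the thick line parts the aGC libraries from the PBS libraries.

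A few genes departed from the rest. Rps27, a zinc-finger protein of the 40S (chromosome 3, 90212522 to 90213651), had 118, 135 and 154 CPM in WT FT with aGC and 113, 154 and 199 CPM with PBS, and the groups overlapped. Its log2 change of -0.16 ± 0.08 did not pass (adjusted p = 0.0867). It was called lower, at -0.13, when each library's trend with gene length was removed, and 2 members were also lower when KO FT male replicate 3 with aGC was left out. The smallest rises that passed were 0.18 for Rpl13a, 0.36 for Rpl13 and 0.43 for Rps19, all 60S proteins except Rps19.

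When each group was reduced to 1 profile by adding its 3 libraries, giving 8 profiles with sex as a term in the fit, 62 of the 82 genes still passed in WT FT (median adjusted p = 0.0302, edgeR). Of the 82, 77 had an unadjusted p under 0.05 in that fit.

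**Figure D3:**
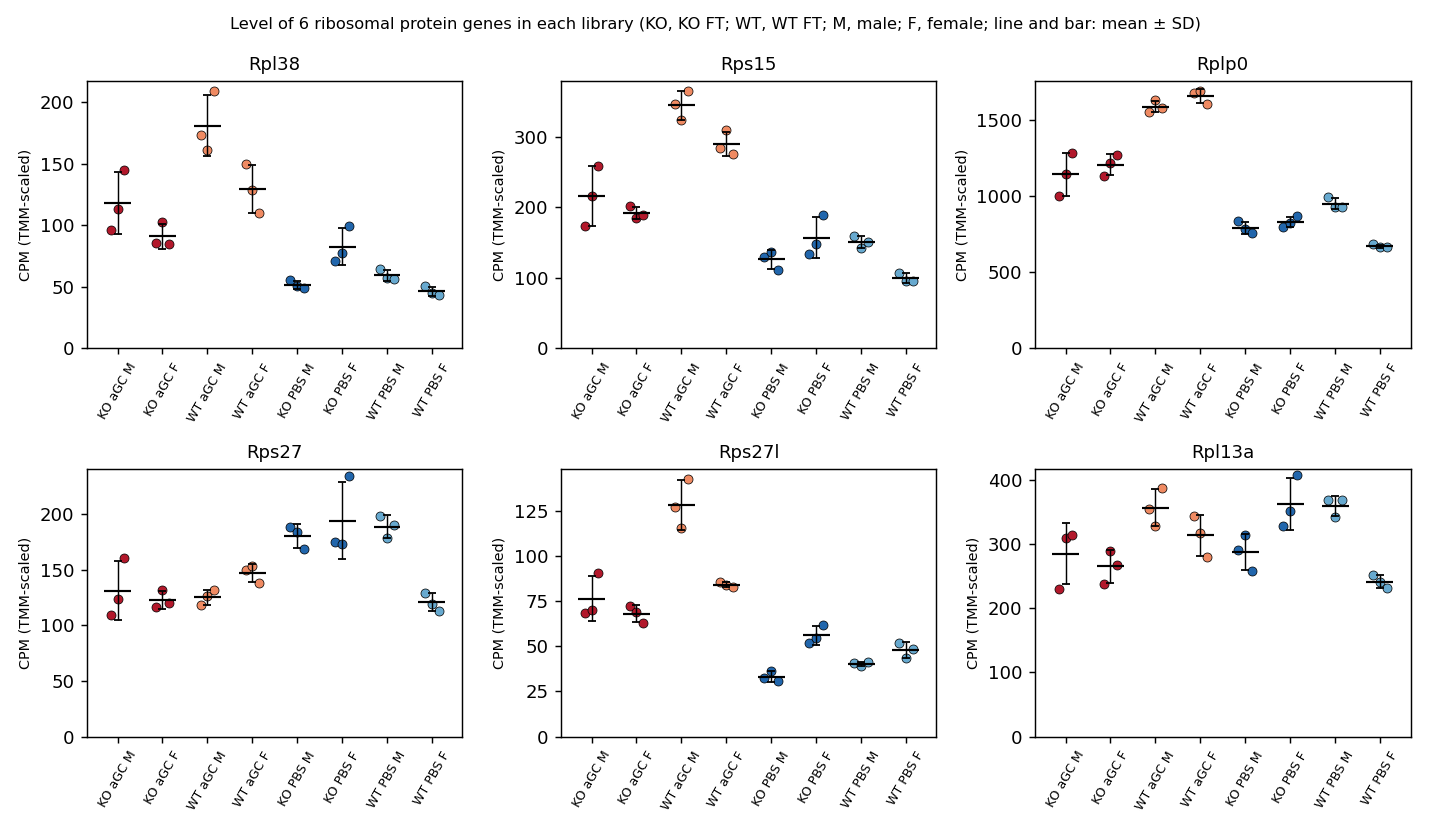
TMM-scaled CPM of 6 genes in every library, with a line and bar for the mean ± SD of the 3 libraries of a group. Rpl38, Rps15, Rplp0 and Rps27l are higher with aGC than with PBS in every WT FT library, while Rps27 and Rpl13a overlap between treatments in WT FT.

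The same comparison in offspring of dams with CD1d-knockout donor microbiota gave smaller changes. In KO FT 69 of the 82 genes were higher with aGC and 3 were lower, when 28.1% of all tested genes were higher and 30.1% lower, and the median log2 change was 0.42 (1.34-fold), against -0.03 for all tested genes. All 6 aGC libraries lay above all 6 PBS libraries for 38 members (12.6% of all tested genes) and below them for Rps27 alone (10.7%). With 1 profile per group no member passed (lowest adjusted p = 0.0671), and 35 had an unadjusted p under 0.05.

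Rpl7l1, a nucleolar relative of Rpl7 (chromosome 17, 46773907 to 46782672), was among the most changed. It had 373, 392 and 419 CPM (lowest, median, highest) in KO FT libraries with aGC and 186, 236 and 263 CPM with PBS, with no overlap, a log2 change of 0.79 ± 0.04 (SE, adjusted p = 5.14e-15). Rpl5 alone changed by 0.92 and with its copies summed by 0.99 ± 0.04, where the sum lay between 727 and 859 CPM with aGC and between 346 and 452 CPM with PBS. Rpl27 and Rpl29, both 60S proteins, changed by 0.80 each.

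The 3 genes that fell in KO FT stood at the low end in WT FT too. Rps27 had 109.6, 122 and 161 CPM with aGC and 169, 179.5 and 234 CPM with PBS, with no overlap, and fell by 0.56 ± 0.08 on the log2 scale (adjusted p = 1.84e-06). Rpl13a fell by 0.23. The 10 genes that did not pass were Rps21, Rps29, Rpl32, Rpl10a, Rps18, Rpl37a, Rpl36, Rpl13, Rplp1 and Rps19.

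Members kept much of their order between the transplants. Across the 82 genes the log2 change in KO FT and that in WT FT had a Pearson r of 0.85 and a Spearman rho of 0.77, and the change was larger in WT FT for 81, with Rpl5 as the exception. The KO FT and WT FT changes share no library, but genes share library depth, the length trend and near-identical sequence, so the correlation is a description.

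**Figure D4:**
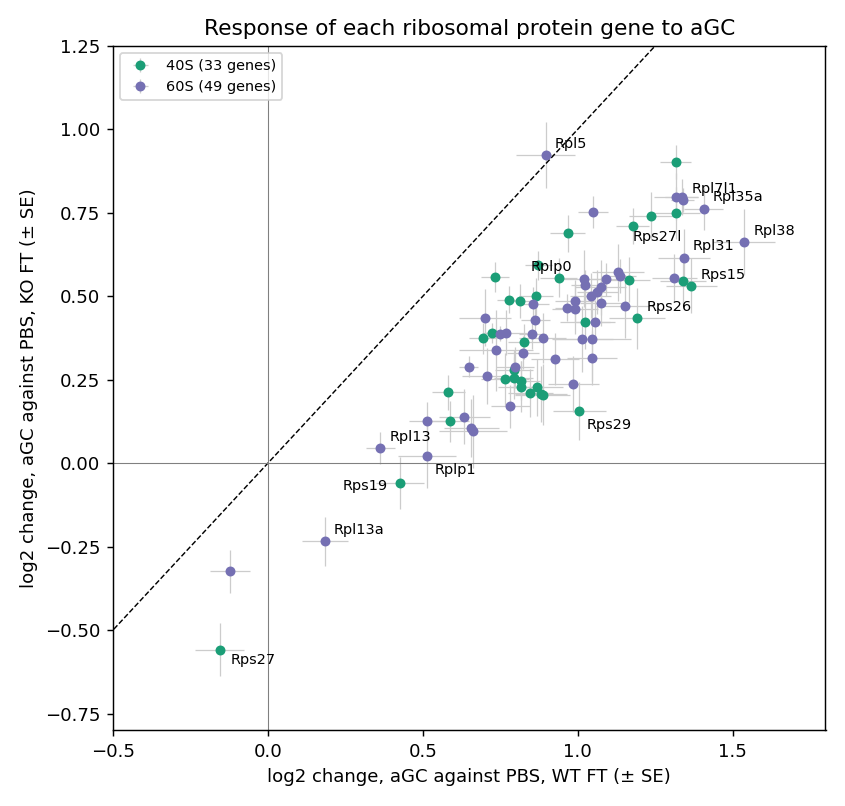
Log2 change with aGC against PBS for each gene in WT FT (horizontal) and KO FT (vertical), with SE as bars, the dashed line marking equal change, and colours for the 33 genes of the 40S and the 49 of the 60S. All genes except Rpl5 lie below the dashed line, and Rps27, Rpl13a and Rps19 are among those below 0 in KO FT, of which Rps19 did not pass.

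The response to aGC was lower in KO FT than in WT FT for 78 of the 82 genes and higher for none, when 22.6% of all tested genes were lower and 21.9% higher, and the median difference was -0.51 on the log2 scale. Rpl38 differed by -0.88 ± 0.14 (SE, adjusted p = 2.48e-05), Rps29 by -0.85, Rps15 by -0.84, Rps19bp1 by -0.79 and Rps26 by -0.76. Across the 82 genes Spearman's rho between coding length and this difference was 0.60, so shorter members tended to differ more. With each library's length trend removed, these genes stood at -0.69, -0.66, -0.64, -0.58 and -0.55 in the same order. Rps15a stood at -0.91 there, with the trend taken at its annotated spliced length of 5154.5 bases (390 coding). With the trend left in, Rps15a lay between -0.70 and -0.57 with each library left out in turn. Among the 4 that did not pass were Rpl22l1 at -0.27, Rpl10 at -0.40 and Rpl5 at 0.03. With copies summed all 3 passed as lower: Rpl22l1 at -0.28 ± 0.11 (adjusted p = 0.0409), Rpl10 at -0.31 ± 0.06 (adjusted p = 0.000128) and Rpl5 at -0.42 ± 0.05 (adjusted p = 5.51e-07). With 1 profile per group none passed (lowest adjusted p = 0.935), and 13 had an unadjusted p under 0.05.

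Set directly against each other after aGC, KO FT libraries had less of the family than WT FT libraries. Here 79 of 82 genes were lower and none was higher, when 26.5% of all tested genes were lower and 25.4% higher, with a median log2 change of -0.43 (1.34-fold lower). For 40 genes all 6 KO FT libraries lay below all 6 WT FT libraries, against 9.39% of all tested genes, and for none did they all lie above (6.75%). Rpl31, a 60S protein near the exit of the peptide tunnel, had 87.4, 93.9 and 127 CPM in KO FT and 128, 163 and 203 CPM in WT FT, and was lower by the widest margin, at -0.73 ± 0.08. Rps19bp1 followed at -0.67, Rps15 at -0.63 and Rpl26 at -0.60. Rps27 at -0.10, Rpl37a at -0.20 and Rpl10 at -0.28 did not pass, but Rpl10 with its copies summed was lower, at -0.32 ± 0.04 (adjusted p = 6.61e-07). With 1 profile per group none passed (lowest adjusted p = 0.598), and 31 had an unadjusted p under 0.05.

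Gene length moved with this comparison. Ribosomal protein genes are short, with a median spliced length of 830 bases against 2521 for all tested genes, and after aGC short genes outside the family were also lower in KO FT. Among 2278 other genes under 1 kb the median log2 change, KO FT against WT FT with aGC, was -0.23, among those of 1 to 2 kb -0.18, of 2 to 4 kb 0.03 and above 4 kb 0.29. Spearman's rho between length and change over all tested genes was 0.30. When the trend with length in each library was removed, 74 members stayed lower, all of them among the 79, and the median change was -0.25. The difference in response kept 69 of 78 and a median of -0.32. For aGC against PBS without the trend, 77 members were higher in KO FT, 68 of them among the 69, with a median of 0.53, and 79 of the 80 were higher in WT FT with a median of 0.85. Why libraries differ by gene length was not tested.

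**Figure D5:**
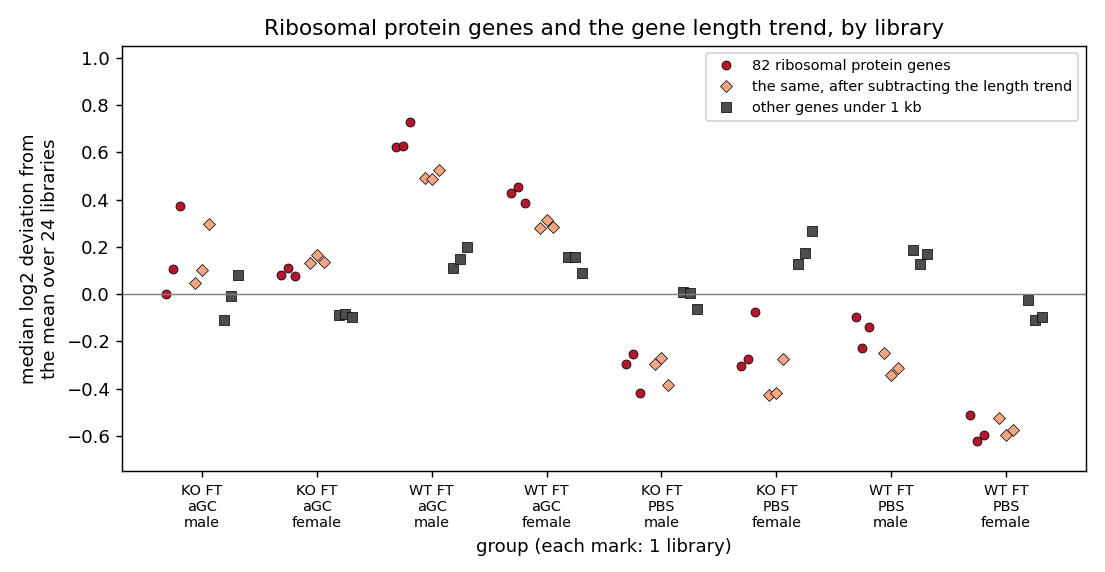
Median log2 deviation from the mean over 24 libraries in each library, for the 82 ribosomal protein genes (circles), for the same genes after the library's length trend was subtracted (diamonds), and for other genes under 1 kb (squares). WT FT males with aGC stay highest after subtraction, at 0.49 to 0.53, and WT FT females with PBS lowest, at -0.60 to -0.52.

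Without antigen, few members passed in the comparison over both sexes. With PBS, 16 of the 82 genes were higher and 4 lower in KO FT than in WT FT, when 14.6% of all tested genes were higher and 14.8% lower, and the median log2 change was 0.09. The highest were Rps29 at 0.37, Rpl37a at 0.35, Rps28 at 0.33, Rpl38 at 0.31 and Rps27 at 0.31, and the lower ones included Rpl5 at -0.49, Rpl15 at -0.15 and Rpsa at -0.13. Across the 82 genes Spearman's rho between coding length and this change was -0.58, so shorter members tended to be higher in KO FT. With the length trend removed the 5 highest stood at 0.32, 0.32, 0.29, 0.27 and 0.26 in the same order. With copies summed Rpl5 was lower by -0.10 (adjusted p = 0.0417) and Rpl15, at -0.10, did not pass (adjusted p = 0.107). Rpl11, at 0.12 alone, and Rpl27a, at 0.17 alone, passed as higher with copies summed, both at 0.23 (adjusted p = 0.0441 and 0.0263). For 1 member all 6 KO FT libraries lay below all 6 WT FT libraries, as they did for 1.89% of all tested genes. No member had the reverse order, which 1.67% of all tested genes had. Leaving out KO FT female replicate 3 left 5 genes higher, and leaving out KO FT male replicate 1 left 2 lower. With 1 profile per group none passed (adjusted p = 1 for all), and none had an unadjusted p under 0.05.

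The medians of the sexes lay on opposite sides of 0. In males 27 members were lower and none higher in KO FT with PBS (21.4% of all tested genes were lower and 21.1% higher), with a median of -0.18. In females 64 were higher and 2, Rpl15 and Rpl5, were lower (14.9% of all tested genes in each direction), with a median of 0.36. With copies summed no member was lower in females, and Rpl5 was at 0.07. Gene length and single libraries moved with these counts. Other genes under 1 kb had medians of -0.17 in males and 0.24 in females, and removing the trend left 9 lower in males and 36 higher in females. Leaving out male replicate 3 of KO FT left 12 lower, and leaving out female replicate 3 of KO FT left 41 higher and none lower. The difference between the sexes in this comparison was not tested.

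Both sexes showed the rise with aGC. In KO FT 66 members were higher and 2 lower in males (26.8% and 26.7% of all tested genes), and 49 were higher and 3 lower in females (27.7% and 28.3%). In WT FT 76 were higher and 2 lower in males (31.7% and 34.9%), and 81 were higher and none lower in females (28.6% and 29.8%). After aGC, KO FT against WT FT, 76 were lower in males and 68 in females, none being higher (22.4% and 24.4% lower, 24.2% and 19% higher). Removing the length trend left 71 lower in males and 31 in females, and leaving out KO FT male replicate 1 with aGC left 1 member lower with aGC in KO FT males.

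Single members differed between the sexes. In WT FT the response was larger in males for 7 members and smaller for 30 (24.2% and 23.5% of all tested genes). Rps27 fell by 0.59 in males of WT FT and rose by 0.28 in females, a difference of -0.88 ± 0.16 (adjusted p = 7.72e-05), and Rps19 differed by -0.92. Rpl5, Rps27l, Rpl22l1, Rpl15, Rpl22 and Rpl7l1 rose more in males, by 0.34 to 1.07, where the difference for Rpl5 was 0.30 with its copies summed. With the length trend removed 16 members rose more in males of WT FT. In KO FT 25 members responded more in males and 3 less (25.3% and 21.4%), led by Rpl38 at 1.06 ± 0.20, whose means were 118 ± 25 CPM with aGC and 51.8 ± 3.2 CPM with PBS in males, and 90.9 ± 10 and 82.7 ± 15 CPM in females (SD, n = 3 each). The count of 25 was near the share of all tested genes, and the members' median difference was 0.17, against 0.36 for other genes under 1 kb. With the length trend removed, the response of 13 members was larger and of 26 smaller in males of KO FT, and without KO FT female replicate 3 with PBS 16 were larger. Leaving out KO FT female replicate 1 with PBS left 1 smaller, and leaving out KO FT male replicate 3 with aGC left 8.

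Markers of other T cells moved with treatment in opposite directions in the sexes. Cd8a and Cd8b1, both above 0 in every group, summed to 14.1 to 14.5 CPM in KO FT males with aGC and to 393 to 396 with PBS, and to 494 to 523 CPM in KO FT females with aGC and 15.9 to 16.7 with PBS. In WT FT males they summed to 17.3 to 19.8 CPM with aGC and 854 to 863 with PBS, and in WT FT females to 631 to 640 with aGC and 15.7 to 16.8 with PBS. The 10 markers of naive T cells followed the same pattern, at 1381 to 1440 CPM with aGC and 3933 to 4081 with PBS in WT FT males, and at 3336 to 3384 with aGC and 1906 to 1912 with PBS in WT FT females. Ribosomal protein genes rose with aGC in both sexes. Whether cells that carry these markers had a part in that rise, or in the differences between the sexes, was not tested.

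Paralogs showed unequal changes within a pair. Rps27l (chromosome 9, 66946086 to 66949516), whose gene p53 induces, encodes a protein close to Rps27 from a coding sequence of equal length, 252 bases. The ratio of Rps27l to Rps27, taken within a library and so free of scaling, was 0.52 to 0.63 in KO FT libraries with aGC and 0.17 to 0.32 with PBS, and 0.55 to 1.09 in WT FT libraries with aGC and 0.21 to 0.43 with PBS. The groups did not overlap, and the log2 ratio rose by 1.30 in KO FT and 1.38 in WT FT. These are means over the sexes, which differed in size: the change was 1.66 in males and 0.93 in females of KO FT, and 2.24 in males and 0.52 in females of WT FT. That difference in the ratio was not tested. An exact permutation test of libraries within each sex (two-sided, 400 arrangements) gave p = 0.005, the smallest it can give, and 0.01 after adjustment over 8 tests of 4 pairs. Rpl7l1 rose relative to Rpl7 by 0.32 in KO FT and 0.37 in WT FT, with the same exact permutation p = 0.005 and adjusted p = 0.01. Its ratio was 0.838 to 0.926 with aGC and 0.560 to 0.826 with PBS in KO FT. In WT FT it was 0.882 to 1.055 with aGC and 0.604 to 0.9315 with PBS, and the groups overlapped. The change was 0.50 in males and 0.15 in females of KO FT, and 0.53 in males and 0.21 in females of WT FT.

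For the other pairs no change in proportion passed. Rpl22l1 to Rpl22, whose proteins are known to act against each other in T cell development, stood at 0.57 to 0.78 in KO FT with aGC and 0.53 to 0.66 with PBS, and at 0.63 to 0.76 in WT FT with aGC and 0.69 to 0.75 with PBS. Its log2 ratio changed by 0.18 in KO FT (exact permutation p = 0.045, adjusted 0.072), by 0.23 without KO FT male replicate 3 with aGC (adjusted p = 0.016, exact permutation test), and by -0.01 in WT FT (adjusted p = 0.815). Rpl36al to Rpl36a changed by 0.10 in KO FT and -0.02 in WT FT, with adjusted p-values of 0.44 and 0.815. These pairs and their test were chosen with results in view.

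Genes that work with the ribosomal proteins were read from the same fits. Fau, which encodes Rps30 fused to a ubiquitin-like sequence, and Rack1, a scaffold on the 40S, rose in WT FT by 0.67 and 1.33. In KO FT Rack1 rose by 0.88, while Fau, at 0.08, did not pass. Both had a smaller response in KO FT than in WT FT, by -0.59 for Fau and -0.44 for Rack1.

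Assembly factors, which build ribosomes in the nucleolus, were higher in nearly all cases. Of 18 tested, 17 were higher with aGC in KO FT (median 1.04) and 17 in WT FT (median 1.29), none being lower. Of all tested genes, 28.1% were higher and 30.1% lower in KO FT, and 30.9% and 37.5% in WT FT. Ncl, nucleolin, changed by 1.68 ± 0.03 in KO FT and 2.16 ± 0.03 in WT FT, Nop56 by 1.19 and 1.71, and Grwd1, a chaperone of Rpl3, by 1.41 and 1.66. In the test of the difference in response 12 were lower in KO FT, 2 (Rrn3 and Ubtf, which serve RNA polymerase I) were higher and 4 did not pass. Of all tested genes, 22.6% were lower and 21.9% higher in that test.

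Elongation factors and other TOP messenger RNAs were mostly higher. Of 17, 14 were higher in KO FT (median 0.70) and 16 in WT FT (median 0.78), against 28.1% and 30.9% of all tested genes. None was lower, against 30.1% and 37.5%. The response was lower in KO FT for 10 and higher for none (22.6% and 21.9% of all tested genes). Npm1, a nucleolar chaperone, changed by 1.76 in KO FT and 2.22 in WT FT, whereas Eef1a1, an abundant elongation factor, changed by -0.04 in KO FT, which did not pass, and by 0.14 in WT FT. Among 14 regulators of growth, 4 were higher and 4 lower in KO FT, near the shares of all tested genes (28.1% and 30.1%). In WT FT 8 were higher and 4 lower (30.9% and 37.5% of all tested genes). Myc changed by 1.76 ± 0.05 in KO FT and 2.12 ± 0.05 in WT FT, and Larp1 by 1.16 and 0.93.

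Mitochondrial ribosomal proteins, whose 78 genes make the ribosome of that organelle, rose as well. With aGC 50 were higher and 7 lower in KO FT (median 0.24), against 28.1% and 30.1% of all tested genes. In WT FT 75 were higher and none lower (median 0.67), against 30.9% and 37.5%. Their response was lower in KO FT for 70 and higher for none (22.6% and 21.9% of all tested genes), with a median difference of -0.42. In KO FT females 23 were higher and 17 lower (27.7% and 28.3% of all tested genes), where the cytosolic family had 49 and 3. No list was tested as a whole, and no difference between lists was tested.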

How the data were processed

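RNA-seq libraries from sorted iNKT cells of 8 groups, 3 libraries each, were analysed. Per the labels' protocols, RNA was isolated with a single-cell RNA purification kit and libraries were made with Nextera XT. The authors deposited estimated counts per gene, made with kallisto on GRCm38 (mm10) per the submitters' processing notes. No source used here gives the kallisto version. The deposited values were whole numbers and were used as counts without rounding. Symbols, coding status, coordinates and lengths came from GENCODE M21, which held 55154 of the 55335 gene identifiers.

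Genes were filtered with filterByExpr (minimum count 10, minimum total 15), scaled by TMM and tested in edgeR 4.0.16 (R 4.3.3) with the quasi-likelihood test. A single fit to all 24 libraries had 8 group means and 16 residual degrees of freedom, and Benjamini-Hochberg adjustment ran over all 15953 tested genes in each of 15 comparisons at 0.05. The scripts were tested on simulated data first. Comparisons over both sexes average the sexes with equal weight. Paralog ratios used (CPM + 0.5), with an exact permutation test of treatment labels within sex over 400 arrangements, added after seeing the data. Because kallisto shares reads among similar sequences, copies were found by shared 31-base words and summed in an alternative.

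Gene length was handled by a lowess trend (span 0.3) of log2 deviation on log length in each library, entered as an offset, with spliced or with coding length. The genes named are the 5 members with the highest and the 5 with the lowest log2 change in each comparison over both sexes, the 5 at each end of the levels per kb, members whose direction differs from most, paralog pairs, and stalk, 5S-binding and other members listed for their role; further genes were chosen after their values were seen. Members, gene lists and tests were chosen with earlier results of these data known. Other alternatives were other scalings, DESeq2 1.42.0, no filter, a replicate block, 1 profile per group and leaving out each library. Depth was 9764931 to 37016768 counts. Some genes that meet the naming rule are not reported here by name, and they remain in the counts and medians.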

Additional observations from a re-analysis of the deposited data

Results flagged for a closer look

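The difference between the transplants in the response to aGC, KO FT minus WT FT, was flagged by its own test: 78 of the 82 genes were lower, against 22.6% of all tested genes, and none was higher, against 21.9%. The lower genes were led by Rpl38 at -0.88, Rps29 at -0.85, Rps15 at -0.84, Rps19bp1 at -0.79 and Rps26 at -0.76 (log2, edgeR, adjusted p under 0.05). Other genes under 1 kb had a median of -0.25 in the same test, and with 1 profile per group none of the 82 passed. Spearman's rho between coding length and the difference was 0.60 across the 82 genes.

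The difference between the sexes in the response, male minus female, was flagged in the same way. In KO FT 25 members were higher and 3 lower, against 25.3% and 21.4% of all tested genes, and with the length trend removed 13 were higher and 26 lower. In WT FT 7 were higher and 30 lower, against 24.2% and 23.5% of all tested genes. In KO FT other genes under 1 kb had a median difference of 0.36, against 0.17 for the 82 genes. Cd8a and Cd8b1 also moved in opposite directions in the sexes, and their part was not tested.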

How the results depend on the processing

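Counts of members are given for KO FT against WT FT unless a treatment is named. The rise with aGC kept its direction under every scaling, filter and test tried. Among 44 single genes chosen by the naming rule, 7167 values kept their side of the threshold, 234 lost it, 76 gained it and 3 reversed. Most of the values that kept it came from fits that left out 1 library. Most of the losses came from the fit with 1 profile per group. With 1 profile per group, the counts with aGC in KO FT became 0 higher and 0 lower, with PBS 0 and 0, with aGC 0 lower, and for the difference in response 0 lower. With the length offset 2 members were lower with aGC in WT FT, as they were with coding length and without the filter; in females with PBS 36 were higher; in males with PBS 1 was higher and 9 lower; in females with aGC 31 were lower; and the response was larger in males for 16 members in WT FT, and larger for 13 and smaller for 26 in KO FT. With coding length 1 was higher with aGC, 1 higher in males with aGC, 1 higher and 17 lower in males with PBS and 20 lower in females with aGC, and in KO FT 5 responded more and 23 less in males. Without the filter 5 were lower with aGC in KO FT females, 55 lower in males with PBS, and 1 responded less in males of KO FT. Summing pseudogenes left 1 lower in females with PBS, and summing all copies left 0. Under coding length Rps25 and Rps27 reversed to 0.0055 and 0.17 with aGC, and Rpl5 reversed to -0.42 in the difference in response with copies summed. The causes were not tested.

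Leaving out 1 library at a time gave these ranges. With aGC against PBS, 62 to 75 were higher and 2 to 3 lower in KO FT, and 79 to 80 higher and 0 to 2 lower in WT FT. In males of KO FT these were 61 to 73 and 1 to 3, in females of KO FT 40 to 57 and 3, in males of WT FT 74 to 77 and 2, and in females of WT FT 79 to 82 and 0. With PBS 5 to 19 were higher and 2 to 5 lower, in males 0 and 12 to 36, and in females 41 to 69 and 0 to 2. With aGC 78 to 82 were lower, in males 69 to 80 and in females 55 to 73, with 0 higher in each. The difference in response had 78 to 80 lower and 0 higher. The response was larger in males for 16 to 34 and smaller for 1 to 8 in KO FT, and larger for 6 to 8 and smaller for 20 to 35 in WT FT.

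Replicate numbers did not pair the libraries: same-numbered libraries had correlations of deviations of -0.27 to 0.43, and 2 of 24 libraries correlated best with their own number. With a replicate block 69 were higher and 3 lower with aGC in KO FT and 80 higher in WT FT, 15 were higher and 4 lower with PBS, 79 were lower with aGC, and 78 had a lower response. Depth limits the lowest members, such as Rps21 at 28.4 CPM, and similar copies limit Rpl5, Rpl10, Rpl12 and Rps23.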
